A study of Mus musculus with 4 samples.

Results

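The genes described are 33 members of the glycolysis and hypoxia response, out of 27998 genes in the count table. They form a glycolysis set and a hypoxia set, and all were found in the table: 18 genes for glucose transporters and glycolytic enzymes, and 15 target genes of the hypoxia response. The rule that names them uses no measured value, but the members were chosen with earlier results of these data known.

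Glycolysis splits glucose into pyruvate in the cytosol. Glucose enters through transporters of the SLC2A family, and a chain of enzymes then yields pyruvate, which lactate dehydrogenase can reduce to lactate or mitochondria can oxidise. When oxygen is low, the prolyl hydroxylases that mark the hypoxia-inducible factor HIF1A for destruction slow down, and HIF1A with its partner ARNT binds short sites with the core ACGTG or GCGTG near its targets, many glycolytic genes among them. Embryos at the stage when the tailbud elongates, and the caudal progenitors within them, are known for active glycolysis.

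The 4 mouse cultures of caudal progenitors were profiled by droplet single-cell RNA sequencing (10x Chromium), with 1 library each and 8700 cells loaded per library. Epi-NMP, a neuromesodermal progenitor (NMP) culture, was made by detaching Epi-CE cells and growing them for 2 days on fibronectin with 20 ng/ml FGF2 and the GSK3 inhibitor CHIR99021, a WNT pathway activator, at 3 µM. Epi-CE-T came from a Bra:GFP reporter line taken through the Epi-CE protocol and sorted for GFP at 72 h. Epi-CE, a caudal epiblast-like culture, came from epiblast stem cells held on fibronectin in 12 ng/ml FGF2 and 25 ng/ml activin A, then moved to 20 ng/ml FGF2 without activin, and then given 3 µM CHIR99021 on top. ES-NMP came from embryonic stem cells on gelatine, plated more sparsely than the other cultures, in N2B27 medium for 2 days with 3 µM CHIR99021 in the last 24 h of 72 h and with no FGF2 named. The labels give passages 15 to 30 and E14Tg2a as the strain for every library. Line, starting cell, coating, density, FGF2 and time therefore change together, and their parts cannot be told apart. The text of the labels used here names no oxygen level, glucose level or medium change, and these were not analysed here.

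Cells marked TRUE in the deposited cell table were used: 1111 in Epi-NMP, 2109 in Epi-CE-T, 2386 in Epi-CE and 3116 in ES-NMP. Their unique molecular identifier (UMI) counts were summed per library (22261452 to 71563029 UMIs, median 19189 to 22614 per cell) and are given as CPM, the count per 1000000 UMIs of the library. Intervals are 95% and cover counting error only. Each group is 1 library, so no difference has a replicate check and no test across samples exists. Epi-NMP is the library with the most FALSE barcodes, 1513 of 2624. Hprt, which the E14Tg2a line is known to lack, was at 0.943 CPM in Epi-NMP and 0.801 in Epi-CE, but at 138 in Epi-CE-T and 204 in ES-NMP, so the libraries labelled Epi-CE-T and ES-NMP go against their strain label. Line and condition cannot be told apart in Epi-CE-T over Epi-CE or in Epi-CE over ES-NMP, whereas Epi-NMP and Epi-CE share the near absence of Hprt. T, the gene of the reporter in Epi-CE-T, was at 382 CPM in Epi-CE-T and 431 in Epi-CE. The caudal epiblast markers Nkx1-2 and Cdx2 were at 12.6 and 4.67 CPM in Epi-CE-T, against 182 and 122 in Epi-CE, and 1402 of the 2109 cells of Epi-CE-T fell into node or notochord-like clusters, against 33 of 2386 in Epi-CE.

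The promoters of the members show where the HIF core can be read. RefSeq windows of 300 bases (250 before to 50 after a gene's start, GRCm38.p6) were at hand for 31 members, all but Slc2a3 and Ndrg1. ACGTG or GCGTG was searched on both strands with overlaps allowed, so that CACGTG counts once on each strand. In 29 of the 31 at least 1 window held a match, against 46.7% of the 27025 genes with a window. All 14 hypoxia targets with a window and 15 of 17 glycolytic genes held one. The members had 44 windows for these 31 genes, and by window 36 of 44 held a match, against 43.8% of all 32851. The windows of the members also had more G and C (median 62.8%) than all 32851 windows (52.7%). Both cores contain CG, whose median count was 20.5 in the windows of the members and 7.0 in all windows. The part of base composition and of the number of windows in the count was not tested. A match is a run of letters and not a measured binding site. The 6 windows below belong to genes on which the values turn: Ldha and Pgk1, which were high in both Epi-CE-T and Epi-CE, Bnip3 and P4ha1, hypoxia targets that followed them, Adm, which was high in Epi-CE-T alone, and Ldhb, which did not follow the other enzymes. Capitals mark each match and each line runs 5′ to 3′ on the gene's strand.
Ldha, chr7:46845554-46845853, plus strand: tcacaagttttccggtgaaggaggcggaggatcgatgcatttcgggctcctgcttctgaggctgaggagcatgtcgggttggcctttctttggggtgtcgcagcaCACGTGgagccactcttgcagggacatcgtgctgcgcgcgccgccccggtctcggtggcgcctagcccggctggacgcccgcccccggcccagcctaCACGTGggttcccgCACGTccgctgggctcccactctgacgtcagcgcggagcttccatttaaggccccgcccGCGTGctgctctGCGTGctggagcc
Pgk1, chrX:106186850-106187149, plus strand: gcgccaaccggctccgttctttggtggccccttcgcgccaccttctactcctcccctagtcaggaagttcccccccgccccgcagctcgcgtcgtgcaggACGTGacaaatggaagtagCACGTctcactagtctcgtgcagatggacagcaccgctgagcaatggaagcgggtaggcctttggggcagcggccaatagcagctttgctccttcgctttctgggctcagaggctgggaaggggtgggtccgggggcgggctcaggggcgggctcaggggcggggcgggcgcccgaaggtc
Bnip3, chr7:138909457-138909756, minus strand: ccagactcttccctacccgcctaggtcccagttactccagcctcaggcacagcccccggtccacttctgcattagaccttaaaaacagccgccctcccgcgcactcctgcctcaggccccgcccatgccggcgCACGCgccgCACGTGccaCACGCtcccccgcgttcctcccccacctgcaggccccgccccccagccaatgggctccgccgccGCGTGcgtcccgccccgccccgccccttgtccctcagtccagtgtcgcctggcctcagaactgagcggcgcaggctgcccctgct
P4ha1, chr10:59323046-59323345, plus strand: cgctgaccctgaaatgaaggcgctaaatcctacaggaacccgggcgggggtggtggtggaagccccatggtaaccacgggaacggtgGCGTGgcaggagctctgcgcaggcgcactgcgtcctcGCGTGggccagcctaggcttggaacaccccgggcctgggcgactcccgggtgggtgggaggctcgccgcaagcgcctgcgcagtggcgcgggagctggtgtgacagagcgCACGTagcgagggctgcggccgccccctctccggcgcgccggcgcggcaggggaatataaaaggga
Adm, chr7:110627407-110627706, plus strand: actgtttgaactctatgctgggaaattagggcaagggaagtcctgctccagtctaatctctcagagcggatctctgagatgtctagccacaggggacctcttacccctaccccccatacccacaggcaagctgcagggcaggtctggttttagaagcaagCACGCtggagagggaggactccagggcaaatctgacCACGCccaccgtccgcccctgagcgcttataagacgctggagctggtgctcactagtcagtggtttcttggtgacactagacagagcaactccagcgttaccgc
Ldhb, chr6:142507908-142508207, minus strand: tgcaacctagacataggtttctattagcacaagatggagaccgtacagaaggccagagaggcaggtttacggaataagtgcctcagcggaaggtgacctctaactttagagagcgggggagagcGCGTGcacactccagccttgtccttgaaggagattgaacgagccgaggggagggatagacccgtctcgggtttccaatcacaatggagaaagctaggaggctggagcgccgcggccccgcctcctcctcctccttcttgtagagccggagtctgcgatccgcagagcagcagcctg
Matches were most numerous in the Ldha window, with 5 of ACGTG and 2 of GCGTG, and the Ldhb window had 1 of GCGTG and none of ACGTG. The window printed for Ldha is the first of 2 in the table. The Adm window held 2 of GCGTG, and the Pgk1 window 2 of ACGTG.

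Both sets were high in Epi-CE-T and Epi-CE and low in Epi-NMP and ES-NMP. The glycolysis set held 1.38% of all UMIs in Epi-NMP, 2.48% in Epi-CE-T and 2.40% in Epi-CE, against 1.25% in ES-NMP. The hypoxia set held 0.222% in Epi-NMP, 0.472% in Epi-CE-T and 0.411% in Epi-CE, against 0.242% in ES-NMP. Of the 18 glycolytic genes, 11 were highest in Epi-CE-T, 6 in Epi-CE and 1, Ldhb, in ES-NMP. Of the 15 hypoxia targets, 14 were highest in Epi-CE-T and 1, Ddit4, in Epi-CE. The lowest library was Epi-NMP for 6 and ES-NMP for 12 of the glycolytic genes, and Epi-NMP for 11 and ES-NMP for 4 of the hypoxia targets. These ranks were counted for the members only and not over all genes. Sums are led by a few genes: Gapdh gave 21.6% to 26.3% of the UMIs of the glycolysis set, and Mif gave 52.4% to 80.6% of those of the hypoxia set.

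**Figure D1:**
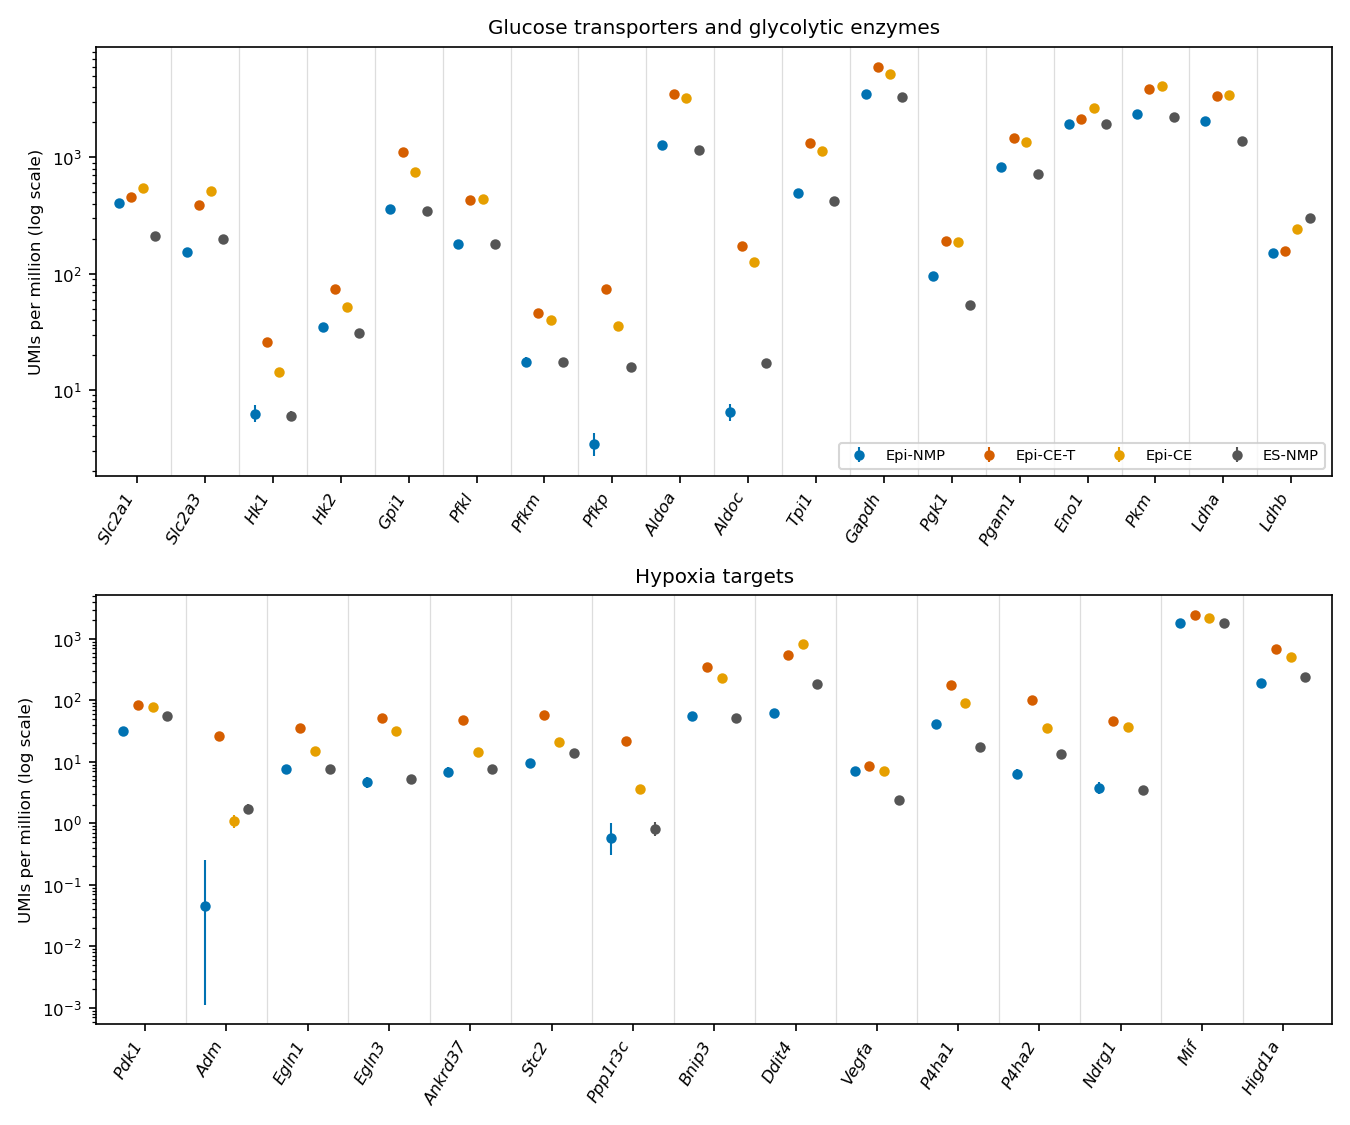
Level of each of the 33 genes in CPM (log scale) in Epi-NMP, Epi-CE-T, Epi-CE and ES-NMP, 1 library each, with exact Poisson 95% intervals of counting error. In most genes the points of Epi-CE-T and Epi-CE lie above those of Epi-NMP and ES-NMP, which Ldhb, Vegfa and Adm do not follow.

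The glucose transporters had the same order over Epi-CE, Epi-CE-T and ES-NMP, and parted in Epi-NMP. Slc2a1 encodes GLUT1, the widely used basal transporter, and stood at 409 CPM in Epi-NMP, 458 in Epi-CE-T and 544 in Epi-CE, against 209 in ES-NMP. Slc2a3 encodes GLUT3, a high-affinity transporter, and stood at 155 CPM in Epi-NMP, 389 in Epi-CE-T and 509.6 in Epi-CE, against 199 in ES-NMP. Slc2a1 thus stayed within 1.33-fold of Epi-CE in Epi-NMP, while Slc2a3 was 3.29-fold lower (3.18 to 3.41) in Epi-NMP than in Epi-CE and lower even than in ES-NMP. In Epi-CE-T, both transporters were lower than in Epi-CE, Slc2a1 by 1.19-fold (1.17 to 1.21) and Slc2a3 by 1.31-fold (1.29 to 1.34), below the 1.5-fold used here to call a difference.

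The first enzymes of the chain trap glucose and commit it to breakdown. Hk1, a hexokinase gene, was at 6.29 CPM in Epi-NMP, 26.1 in Epi-CE-T and 14.4 in Epi-CE, against 6.04 in ES-NMP. Hk2, the inducible hexokinase gene, was at 35.2 CPM in Epi-NMP, 74.2 in Epi-CE-T and 52.1 in Epi-CE, against 30.7 in ES-NMP. Gpi1, whose enzyme turns glucose 6-phosphate into fructose 6-phosphate, was at 357 CPM in Epi-NMP, 1112 in Epi-CE-T and 742 in Epi-CE, against 344 in ES-NMP. All 3 were highest in Epi-CE-T, and the intervals of Hk1 in Epi-NMP and ES-NMP overlap. Of the phosphofructokinase genes, which carry out the committing step, Pfkl was at 179.8 CPM in Epi-NMP, 432 in Epi-CE-T and 435 in Epi-CE, against 181 in ES-NMP. Pfkm was at 17.5 CPM in Epi-NMP, 45.9 in Epi-CE-T and 40.2 in Epi-CE, against 17.4 in ES-NMP. Both forms were close to level between Epi-NMP and ES-NMP, with overlapping intervals. Pfkp, the platelet form, spread far more: it was at 3.41 CPM in Epi-NMP, 74.6 in Epi-CE-T and 35.8 in Epi-CE, against 15.9 in ES-NMP. It was 10.5-fold lower (8.35 to 13.4) in Epi-NMP than in Epi-CE and 2.08-fold higher (95% interval 1.97 to 2.20) in Epi-CE-T than in Epi-CE.

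The aldolases cut fructose bisphosphate into triose phosphates. Aldoa, the ubiquitous form, was at 1272 CPM in Epi-NMP, 3513 in Epi-CE-T and 3227 in Epi-CE, against 1153 in ES-NMP. Aldoc, the form best known from brain, was at 6.42 CPM in Epi-NMP, 173 in Epi-CE-T and 126 in Epi-CE, against 17.2 in ES-NMP. Aldoc had the widest range of the glycolytic genes, 27.0-fold between Epi-CE-T and Epi-NMP, and was 7.37-fold higher (95% interval 6.93 to 7.83) in Epi-CE than in ES-NMP. Tpi1, which interconverts the triose phosphates, was at 495 CPM in Epi-NMP, 1333 in Epi-CE-T and 1125 in Epi-CE, against 421 in ES-NMP.

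The later steps of the chain harvest ATP. Gapdh, the dehydrogenase often taken as a constant reference gene, was at 3486 CPM in Epi-NMP, 6012 in Epi-CE-T and 5182 in Epi-CE, against 3289 in ES-NMP. It was 1.58-fold higher (95% interval 1.57 to 1.58) in Epi-CE than in ES-NMP, so it was not constant between these libraries. Pgk1, an ATP-forming kinase, was at 95.9 CPM in Epi-NMP, 192 in Epi-CE-T and 187 in Epi-CE, against 53.5 in ES-NMP, and its intervals in Epi-CE-T and Epi-CE overlap. Pgam1, which moves the phosphate group, was at 827 CPM in Epi-NMP, 1473 in Epi-CE-T and 1349 in Epi-CE, against 721 in ES-NMP. Eno1, enolase, was at 1928 CPM in Epi-NMP, 2130.0 in Epi-CE-T and 2636 in Epi-CE, against 1954 in ES-NMP. With a range of 1.37-fold over the 4 libraries, Eno1 varied least of the 33 genes. Pkm, the pyruvate kinase gene, was at 2368 CPM in Epi-NMP, 3887 in Epi-CE-T and 4109 in Epi-CE, against 2210.2 in ES-NMP. Reads of Aldoa, Gapdh, Pgk1, Pgam1, Ldha and Mif, which each have 2 named pseudogenes in the GENCODE annotation, and of Eno1, which has the near-identical copy Eno1b, could be shared with those copies, and the sources used here do not give how such reads were counted.

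The lactate dehydrogenase subunits went separate ways. Ldha, whose subunit favours the making of lactate, was at 2049 CPM in Epi-NMP, 3362 in Epi-CE-T and 3432 in Epi-CE, against 1391 in ES-NMP. Ldhb, whose subunit favours the reverse reaction, was at 152 CPM in Epi-NMP, 157 in Epi-CE-T and 244 in Epi-CE, against 302 in ES-NMP. Ldhb was the only glycolytic gene that was highest in ES-NMP, and Epi-NMP and Epi-CE-T had nearly the same level of it. Ldha was 2.47-fold higher (95% interval 2.45 to 2.49) in Epi-CE than in ES-NMP, whereas Ldhb was 1.24-fold (1.21 to 1.26) lower there.

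Among the hypoxia targets, Pdk1 encodes a kinase that shuts off pyruvate dehydrogenase and so keeps pyruvate from the mitochondria. It was at 32.2 CPM in Epi-NMP, 83.6 in Epi-CE-T and 78.1 in Epi-CE, against 55.8 in ES-NMP. Egln1 and Egln3 encode HIF prolyl hydroxylases that HIF itself induces. Egln1 was at 7.55 CPM in Epi-NMP, 35.4 in Epi-CE-T and 15.0 in Epi-CE, against 7.64 in ES-NMP. Egln3 was at 4.67 CPM in Epi-NMP, 50.8 in Epi-CE-T and 31.6 in Epi-CE, against 5.30 in ES-NMP. Both were highest in Epi-CE-T, and for both the intervals of Epi-NMP and ES-NMP overlap. Ankrd37, an ankyrin repeat gene induced by HIF, was at 6.96 CPM in Epi-NMP, 47.9 in Epi-CE-T and 14.4 in Epi-CE, against 7.67 in ES-NMP, with the same order.

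P4ha1 and P4ha2 encode the catalytic subunits of the collagen prolyl hydroxylases, which use oxygen to mature collagen. P4ha1 was at 41.5 CPM in Epi-NMP, 178 in Epi-CE-T and 91.0 in Epi-CE, against 17.7 in ES-NMP. P4ha2 was at 6.47 CPM in Epi-NMP, 102 in Epi-CE-T and 35.9 in Epi-CE, against 13.7 in ES-NMP. The pair parted in Epi-NMP: against ES-NMP, P4ha1 was 2.34-fold higher (95% interval 2.15 to 2.55) and P4ha2 was 2.11-fold lower (1.77 to 2.54). Bnip3, a receptor for the removal of mitochondria, was at 56.8 CPM in Epi-NMP, 344 in Epi-CE-T and 232 in Epi-CE, against 51.5 in ES-NMP. Higd1a, a mitochondrial membrane protein gene, was at 189.6 CPM in Epi-NMP, 691 in Epi-CE-T and 517 in Epi-CE, against 241 in ES-NMP. Each stood well above Epi-NMP and ES-NMP in both Epi-CE-T and Epi-CE.

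The genes for secreted signals were the least alike. Vegfa, the vessel growth factor gene, was at 7.14 CPM in Epi-NMP, 8.69 in Epi-CE-T and 7.14 in Epi-CE, against 2.45 in ES-NMP, so Epi-NMP kept the level of Epi-CE (interval of the ratio 0.828 to 1.20). Adm, the gene of the vasodilator peptide adrenomedullin, was at 0.0449 CPM in Epi-NMP, 26.6 in Epi-CE-T and 1.09 in Epi-CE, against 1.73 in ES-NMP. The Epi-NMP value of Adm is 1 UMI, against 1196 in Epi-CE-T, 64 in Epi-CE and 124 in ES-NMP. Adm was 24.4-fold higher (95% interval 18.9 to 31.8) in Epi-CE-T than in Epi-CE, while in Epi-CE it was 1.59-fold lower (1.17 to 2.18) than in ES-NMP. Stc2, a stanniocalcin hormone gene, was at 9.52 CPM in Epi-NMP, 58.9 in Epi-CE-T and 21.3 in Epi-CE, against 13.8 in ES-NMP. Mif, a cytokine gene, was at 1788 CPM in Epi-NMP, 2471 in Epi-CE-T and 2198 in Epi-CE, against 1812 in ES-NMP, and stayed within 1.38-fold over all libraries.

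Ddit4, whose protein REDD1 restrains the growth kinase mTORC1, was at 62.6 CPM in Epi-NMP, 551 in Epi-CE-T and 829 in Epi-CE, against 186 in ES-NMP. It had the same direction as the other targets in Epi-CE over ES-NMP, 4.45-fold higher (95% interval 4.36 to 4.53), but was 1.505-fold lower (1.48 to 1.53) in Epi-CE-T than in Epi-CE. Ppp1r3c, which targets a phosphatase to glycogen, was at 0.584 CPM in Epi-NMP, 22.0 in Epi-CE-T and 3.60 in Epi-CE, against 0.810 in ES-NMP. Ndrg1, a stress-induced gene, was at 3.77 CPM in Epi-NMP, 46.8 in Epi-CE-T and 37.5 in Epi-CE, against 3.48 in ES-NMP. Ndrg1 was level between Epi-NMP and ES-NMP within its interval, and 10.8-fold higher (95% interval 9.45 to 12.3) in Epi-CE than in ES-NMP, the largest ratio among the 33 genes in that comparison.

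In Epi-CE over ES-NMP, which sets the 2 starting cell types and protocols against each other, 28 of the 33 genes were at least 1.5-fold higher and 1, Adm, was at least 1.5-fold lower. Over all 13553 genes with at least 50 UMIs in the 2 libraries, 21.1% were that much higher and 16.2% that much lower. The median log2 ratio was 1.23 for the glycolysis set and 1.39 for the hypoxia set, against 0.03 for all genes. In the glycolysis set 16 of 18 were called higher and none lower, which leaves Eno1 at 1.35-fold (1.34 to 1.36) and Ldhb. In the hypoxia set 12 of 15 were called higher, and Pdk1 at 1.40-fold (1.34 to 1.46) and Mif at 1.21-fold (1.20 to 1.22) were called neither way. The smallest ratios called were Stc2 at 1.54-fold (1.42 to 1.68) and Gapdh, and Stc2 lost its call under 5 other settings (log2 ratio 0.41 to 0.58).

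In Epi-NMP over Epi-CE, which follows the replated cells through 2 further days in the same factors, 27 of the 33 genes were lower by 1.5-fold or more, and 0 were that much higher. Over all 12628 measured genes, 22.7% were that much lower and 14.9% that much higher. The median log2 ratio was -1.01 for the glycolysis set and -1.45 for the hypoxia set, against -0.01 for all genes. In the glycolysis set 14 of 18 were called lower, and the others, Slc2a1, Hk2, Gapdh and Eno1, were between 1.33-fold and 1.49-fold lower. In the hypoxia set 13 of 15 were called lower, all but Mif and Vegfa. The largest differences with over 100 UMIs on each side were those of Aldoc at 19.7-fold (16.7 to 23.4), Ddit4 at 13.2-fold (12.6 to 14.0) and Egln3 at 6.76-fold (5.54 to 8.31). Adm was lower by 24.3-fold (4.21 to 974), from 1 UMI. Both libraries are near 0 in Hprt and were given the same factors at the last step.

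In Epi-NMP over ES-NMP, the 2 cultures named NMPs, 4 of the 33 genes were at least 1.5-fold higher and 7 at least 1.5-fold lower. Over all 12949 measured genes 16.0% were that much higher and 18.4% that much lower, so the members' shares are near the background. The median log2 ratio was 0.07 for the glycolysis set and -0.18 for the hypoxia set, against 0.02 for all genes. Slc2a1 (1.95-fold, 1.90 to 2.01), Pgk1 (1.79-fold, 1.70 to 1.89), Vegfa (2.92-fold, 2.34 to 3.64) and P4ha1 were higher in Epi-NMP. Pfkp (4.65-fold, 3.68 to 5.94), Aldoc (2.67-fold, 2.24 to 3.20), Ldhb (1.99-fold, 1.92 to 2.06), Pdk1 (1.73-fold, 1.60 to 1.88), Adm (38.6-fold, 6.8 to 1536), Ddit4 (2.98-fold, 2.82 to 3.15) and P4ha2 were lower. ES-NMP holds 683 cells of a naive pluripotent-like cluster. Without them the ratio of Pfkp was -1.28 in place of -2.22 on the log2 scale, and Ldhb at -0.52 and Pdk1 at -0.26 were no longer past 1.5-fold.

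In Epi-CE-T over Epi-CE, the sorted reporter cells against the unsorted culture, which also differ in cell states and in Hprt, 10 of the 33 genes were at least 1.5-fold higher and 2 lower. Over all 13119 measured genes 18.1% were that much higher and 13.1% that much lower. The hypoxia set had a median log2 ratio of 0.69 with 8 of 15 called higher, and the glycolysis set a median of 0.12 with 2 of 18 called higher, against 0.04 for all genes. The hypoxia targets called higher were Adm, Ppp1r3c (6.12-fold, 5.27 to 7.14), Ankrd37 (3.33-fold, 3.08 to 3.61), P4ha2 (2.85-fold, 2.70 to 3.00), Stc2 (2.76-fold, 2.58 to 2.96), Egln1 (2.36-fold, 2.17 to 2.57), P4ha1 (1.95-fold, 1.89 to 2.02) and Egln3 (1.61-fold, 1.51 to 1.71). The glycolytic genes called higher were Pfkp and Hk1 (1.81-fold, 1.66 to 1.99), while Gpi1, with 1112 CPM against 742, and Bnip3 lay just under the threshold. Ldhb (1.55-fold, 1.51 to 1.60) and Ddit4 were called lower.

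Because Epi-CE-T and ES-NMP are the libraries that hold Hprt counts, they were also compared with each other, a comparison added after the Hprt levels had been seen. In Epi-CE-T over ES-NMP 29 of the 33 genes were at least 1.5-fold higher and 1, Ldhb, was lower, beside 28.2% and 21.3% of all 13490 measured genes. The median log2 ratio was 1.27 for the glycolysis set and 2.64 for the hypoxia set, against 0.08 for all genes. Counts of Hprt in both do not show that they share a line, which was not tested. The largest ratios were those of Ppp1r3c at 27.2-fold (20.8 to 36.1), Adm at 15.3-fold (12.7 to 18.6) and Ndrg1 at 13.4-fold (11.8 to 15.4). The comparisons given here share libraries and are not independent of each other.

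**Figure D2:**
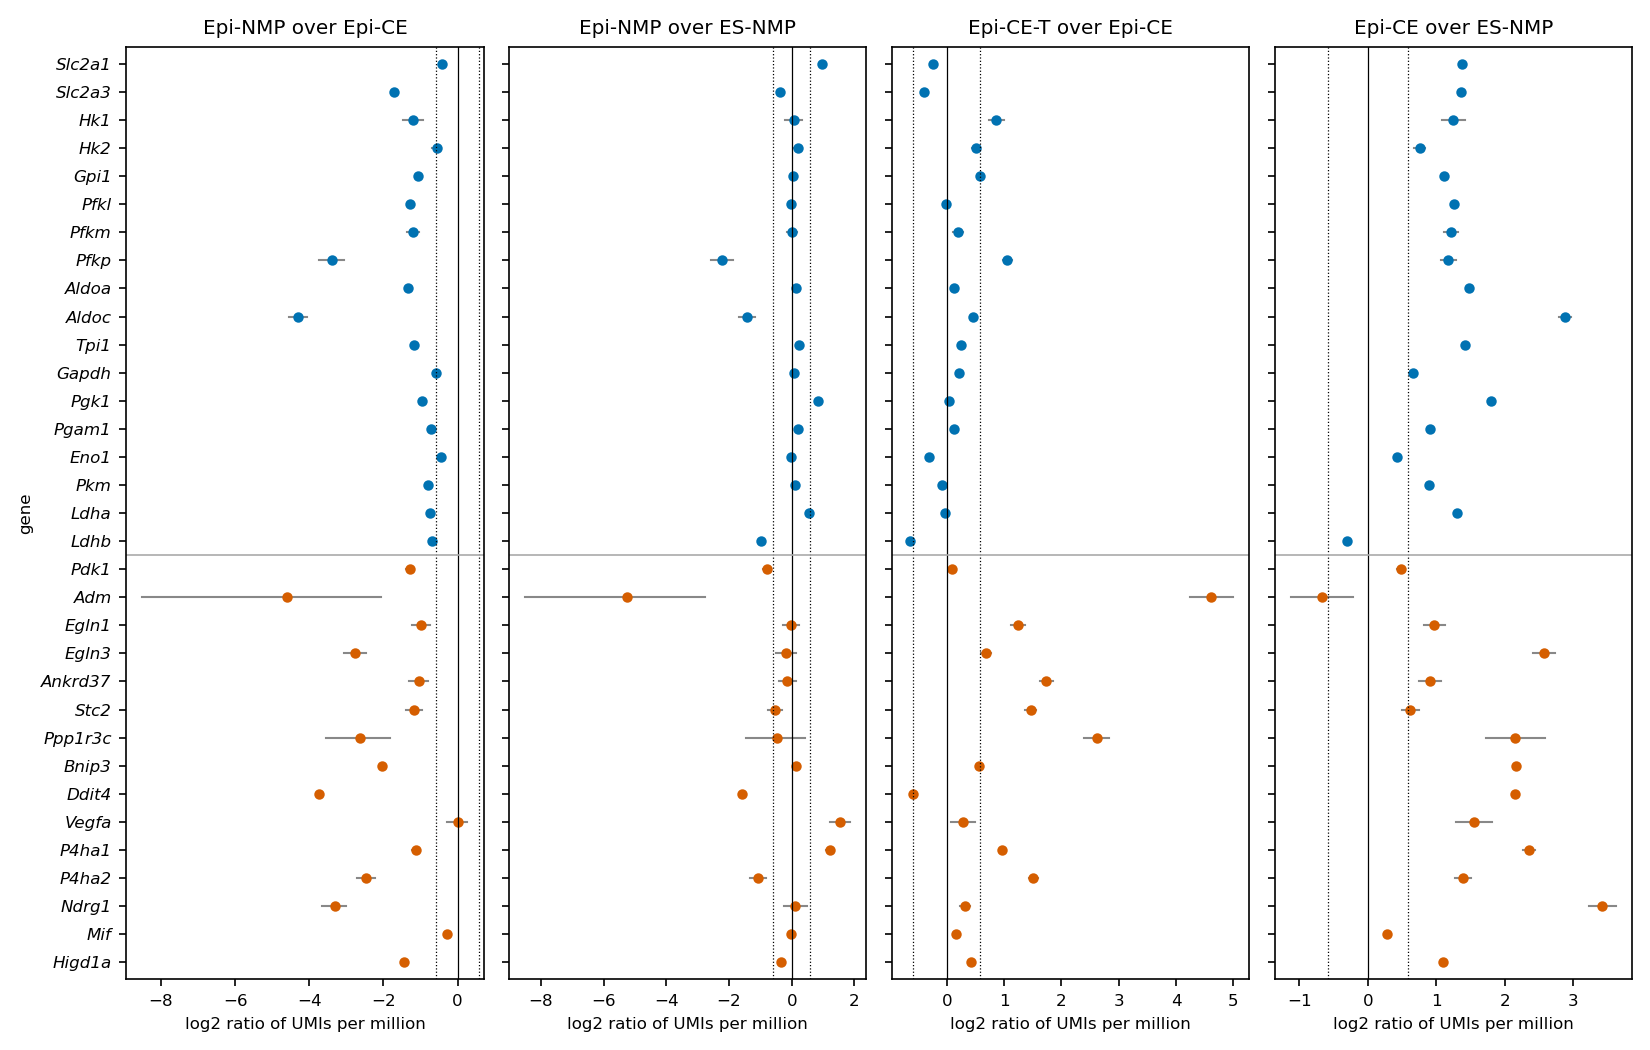
Log2 ratio of CPM for each gene in Epi-NMP over Epi-CE, Epi-NMP over ES-NMP, Epi-CE-T over Epi-CE, and Epi-CE over ES-NMP. Blue points are transporters and enzymes, orange points hypoxia targets, grey lines 95% intervals of counting error (that of Adm in Epi-NMP is cut at the left), and dotted lines 1.5-fold; all 33 points lie at or left of 0 in the first panel, and all but Ldhb and Adm lie right of 0 in the last.

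Genes of the same pathways outside the 33 moved in part with them. Hif1a did not follow the targets, and was at 57.8 CPM in Epi-NMP, 41.2 in Epi-CE-T and 38.0 in Epi-CE, against 39.3 in ES-NMP. Arnt was at 9.75 CPM in Epi-NMP, 12.2 in Epi-CE-T and 12.0 in Epi-CE, against 8.79 in ES-NMP, and Vhl, whose protein marks HIF1A for destruction, at 10.96 CPM in Epi-NMP, 17.3 in Epi-CE-T and 13.2 in Epi-CE, against 8.96 in ES-NMP, both higher in Epi-CE-T and Epi-CE than in the other two libraries. Epas1, which encodes HIF2A, was low everywhere, at 1.03 CPM in Epi-NMP, 0.178 in Epi-CE-T and 0.835 in Epi-CE, against 0.266 in ES-NMP. Of 37 HIF factors and other hypoxia genes, 33 were measured in Epi-CE over ES-NMP. There 18 were at least 1.5-fold higher and 4 lower (median log2 ratio 0.99), beside 21.1% and 16.2% of all genes. In Epi-NMP over Epi-CE 3 were higher and 15 lower of 30 (median -0.54), beside 14.9% and 22.7% of all genes. In Epi-CE-T over Epi-CE 13 of 31 were higher and 3 lower (median 0.39), beside 18.1% and 13.1%.

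Fam162a, a mitochondrial HIF target, was at 259.8 CPM in Epi-NMP, 949 in Epi-CE-T and 621 in Epi-CE, against 182 in ES-NMP. Ero1l, an oxidase for protein folding, was at 17.2 CPM in Epi-NMP, 128 in Epi-CE-T and 69.04 in Epi-CE, against 15.7 in ES-NMP. Plod2, a lysyl hydroxylase of collagen, was at 36.5 CPM in Epi-NMP, 242 in Epi-CE-T and 98.3 in Epi-CE, against 27.3 in ES-NMP, and Loxl2, which cross-links collagen, at 16.6 CPM in Epi-NMP, 115 in Epi-CE-T and 43.8 in Epi-CE, against 10.7 in ES-NMP. All 4 were highest in Epi-CE-T, then in Epi-CE, and higher in Epi-NMP than in ES-NMP, the order also of P4ha1 and Bnip3, whereas 11 of the 15 hypoxia targets were lowest in Epi-NMP. Angptl4, a lipase inhibitor gene, was highest in ES-NMP, at 0 CPM in Epi-NMP, 0.156 in Epi-CE-T and 0.0682 in Epi-CE, against 7.13 in ES-NMP. Bhlhe40, a repressor of transcription, was at 3.37 CPM in Epi-NMP, 49.7 in Epi-CE-T and 30.8 in Epi-CE, against 5.02 in ES-NMP.

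Slc16a3, the lactate exporter MCT4, was at 62.0 CPM in Epi-NMP, 620.2 in Epi-CE-T and 420.3 in Epi-CE, against 97.2 in ES-NMP. Slc16a1, the transporter MCT1, was at 43.3 CPM in Epi-NMP, 26.8 in Epi-CE-T and 35.5 in Epi-CE, against 43.1 in ES-NMP, with the reverse order. Of the 48 other genes of sugar metabolism, 36 were measured in Epi-CE over ES-NMP. There 14 were higher and 6 lower (median log2 ratio 0.21), beside 21.1% and 16.2% of all genes. The 6 lower were 16.7% of the list, near the share of all genes. In Epi-NMP over Epi-CE 1 was higher and 16 lower of 33 (median -0.42), beside 14.9% and 22.7%. Pgm2, a phosphoglucomutase gene, was at 21.5 CPM in Epi-NMP, 203 in Epi-CE-T and 133 in Epi-CE, against 16.8 in ES-NMP. Gbe1, the glycogen branching enzyme gene, was at 12.8 CPM in Epi-NMP, 95.4 in Epi-CE-T and 34.1 in Epi-CE, against 6.29 in ES-NMP, and Gys1, glycogen synthase, at 10.5 CPM in Epi-NMP, 45.5 in Epi-CE-T and 32.8 in Epi-CE, against 9.52 in ES-NMP. Txnip, which restrains glucose uptake and is itself induced by glucose, was at 16.1 CPM in Epi-NMP, 210.5 in Epi-CE-T and 83.6 in Epi-CE, against 17.4 in ES-NMP. Tigar, a phosphatase that lowers glycolytic flux, was highest in ES-NMP, at 4.85 CPM in Epi-NMP, 7.22 in Epi-CE-T and 8.35 in Epi-CE, against 22.0 in ES-NMP.

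Nuclear genes of oxidative phosphorylation stayed level: their median log2 ratios were 0.04 in Epi-CE over ES-NMP, -0.02 in Epi-NMP over ES-NMP, -0.06 in Epi-NMP over Epi-CE and 0.01 in Epi-CE-T over Epi-CE, with 83 or 84 genes measured. Mitochondrially encoded genes gave 2.61% of UMIs in Epi-NMP, 2.67% in Epi-CE-T and 2.26% in Epi-CE, against 2.28% in ES-NMP. Lists of handling and stress moved in places with the members. Immediate early genes, known also to respond to cell handling, were higher in Epi-CE than in ES-NMP (6 of 8 called higher beside 21.1% of all genes, none lower, median log2 ratio 1.92). In Epi-NMP over Epi-CE 0 were higher and 2 of 8 lower, a share near the 22.7% of all genes. Fos, one of them, was at 218 CPM in Epi-NMP, 157 in Epi-CE-T and 310.3 in Epi-CE, against 68.9 in ES-NMP. They were also higher in Epi-NMP than in ES-NMP (7 of 8), where the glycolysis set was near level and 16.0% of all genes were higher. Genes of amino acid and endoplasmic reticulum stress were called higher in 7 of 12 in Epi-CE over ES-NMP (median 0.61, beside 21.1% of all genes), lower in 6 of 12 in Epi-NMP over Epi-CE (median -0.74, beside 22.7%) and lower in 7 of 12 in Epi-CE-T over Epi-CE (median -0.82, beside 13.1%). Trib3, a target of ATF4, was at 8.04 CPM in Epi-NMP, 18.7 in Epi-CE-T and 50.9 in Epi-CE, against 20.2 in ES-NMP. Myc, a regulator that also drives glycolytic genes, was at 19.1 CPM in Epi-NMP, 6.51 in Epi-CE-T and 4.67 in Epi-CE, against 6.53 in ES-NMP. All 4 genes of its list were at least 1.5-fold higher in Epi-NMP than in Epi-CE, beside 14.9% of all genes. The part of these lists in the members' levels was not tested.

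Single cells showed the same split. Each cell was thinned at random to 8000 UMIs, and no TRUE cell was shallower. The median share of UMIs in the glycolysis set was 1.36% in Epi-NMP (quartiles 1.14 and 1.59), 2.51% in Epi-CE-T (2.04 and 2.98) and 2.36% in Epi-CE (2.04 and 2.75), against 1.21% in ES-NMP (1.01 and 1.44). Of the Epi-CE cells, 98.7% lay above the median of ES-NMP, and 0.0900% of Epi-NMP cells lay above the median of Epi-CE. Epi-NMP and ES-NMP overlapped widely, with 67.1% of Epi-NMP cells above the ES-NMP median, and so did Epi-CE-T and Epi-CE, with 57.5% of Epi-CE-T cells above the Epi-CE median. For the hypoxia set without Mif, 96.9% of Epi-CE cells lay above the ES-NMP median, 0.0900% of Epi-NMP cells above the Epi-CE median, and 27.0% of Epi-NMP cells above the ES-NMP median. Of the Epi-CE-T cells 59.4% lay above the Epi-CE median in that share, close to the 57.5% of the glycolysis set. That share weighs genes by their counts, and Ddit4, at 829 CPM in Epi-CE, was at 551 in Epi-CE-T. The part of Ddit4 in the share was not tested. An equal-weight score, the mean over members of log-normalised values, parted the sets more. Its median for the hypoxia set with Mif was 0.750 in Epi-CE-T and 0.628 in Epi-CE (SD 0.152 over Epi-CE cells). For the glycolysis set it was 1.87 and 1.83 (SD 0.216). Low targets were seen in few cells: an Adm UMI was found in 0 of 1111 thinned Epi-NMP cells (which allows up to 0.270% of cells with a UMI at this depth, and the unthinned cells hold 1), in 13.4% of Epi-CE-T cells and in 0.712% of Epi-CE cells, against 0.738% of ES-NMP cells. The part of free RNA in the shares below 1% was not tested.

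**Figure D3:**
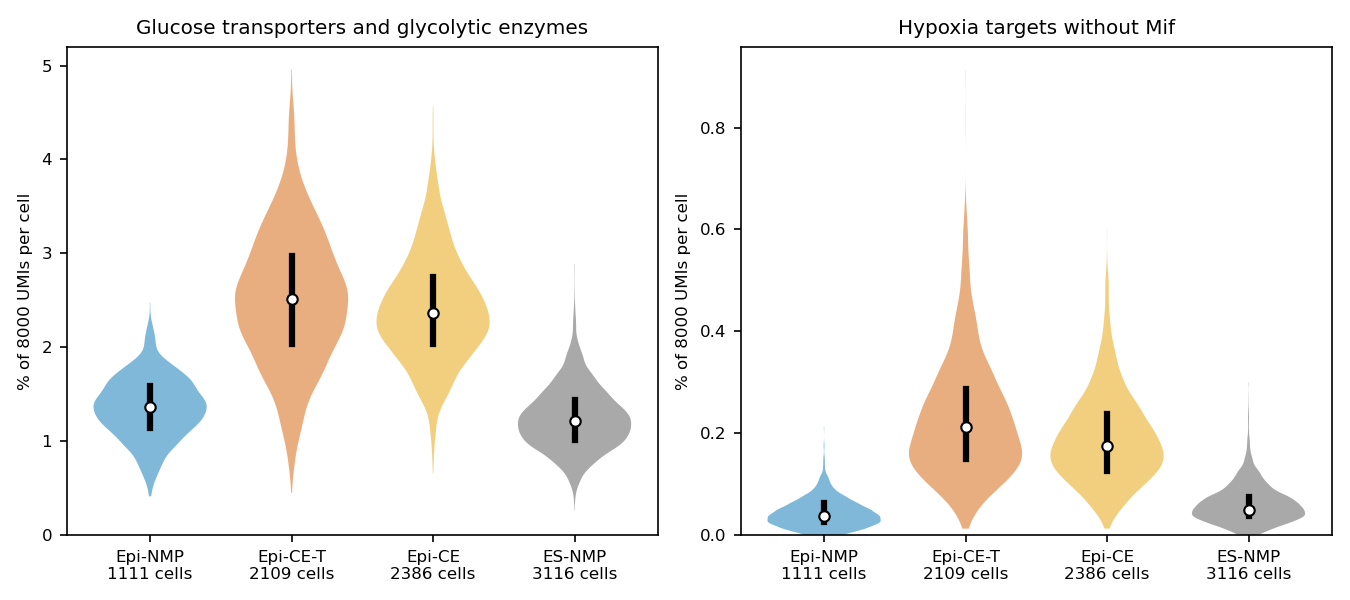
Share of a cell's 8000 UMIs in the transporters and enzymes (left) and in the hypoxia targets without Mif (right), in percent, for all TRUE cells of Epi-NMP, Epi-CE-T, Epi-CE and ES-NMP. Violins show the cells, black bars the quartiles and white points the medians, which on the left are 1.36, 2.51, 2.36 and 1.21%.

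Within Epi-CE-T and Epi-CE, cells with a high glycolytic share tended to have a high share of hypoxia targets. The correlation was lower in Epi-NMP and ES-NMP. Pearson's r between the glycolytic share and the hypoxia share without Mif was 0.14 over the 1111 cells of Epi-NMP, 0.71 over 2109 cells of Epi-CE-T and 0.55 over 2386 cells of Epi-CE, against 0.33 over 3116 cells of ES-NMP. Both are parts of the same 8000 UMIs of a cell, and the cells of a library share its preparation. The median hypoxia share without Mif was only 0.0375% in Epi-NMP and 0.05% in ES-NMP, against 0.2125% in Epi-CE-T and 0.175% in Epi-CE. Counting error in such low shares lowers r, and its part in the lower values was not tested. With Mif kept, the r of the glycolytic share was 0.37 in Epi-NMP, 0.77 in Epi-CE-T, 0.62 in Epi-CE and 0.44 in ES-NMP. The share of mitochondrially encoded genes went the other way in Epi-NMP (r = -0.34) and Epi-CE-T (r = -0.42), less so in Epi-CE (r = -0.13) and hardly in ES-NMP (r = -0.05). Among 3410 other genes seen in at least 20% of cells of every library, those with the highest mean r with the glycolytic share were Fam162a (0.38), Slc16a3 (0.31), Bsg (0.29), Bnip3l (0.25), Ndufv3 (0.20), Galk1 (0.20), Ptma (0.20), Tpd52 (0.20), Upp1 (0.18) and Grhpr (0.16). Bsg encodes basigin, the partner that carries lactate transporters to the membrane, and its r was -0.06 in Epi-NMP, 0.66 in Epi-CE-T and 0.48 in Epi-CE, against 0.09 in ES-NMP. The share's r with T was -0.22 in Epi-NMP and 0.18 in ES-NMP, with the other two libraries between them. With Cdx2, a caudal gene, it was 0.31 in Epi-NMP, -0.10 in Epi-CE-T and 0.05 in Epi-CE, against 0.14 in ES-NMP. Cdx2 was at only 4.67 CPM in Epi-CE-T, against 336 in Epi-NMP. In Epi-NMP the share's r was 0.29 with S phase genes, 0.24 with the cell's UMIs and -0.27 with immediate early genes.

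The glycolytic share differed less between the cell states of a library than between the high and the low libraries. Cells were clustered with the 33 members and the other glycolysis and hypoxia genes left out, and clusters with at least 50 cells in a library were described. Cluster medians of the glycolytic share lay between 1.10% and 1.475% in Epi-NMP, between 2.22% and 2.56% in Epi-CE-T and between 1.775% and 2.49% in Epi-CE, against 0.900% to 1.275% in ES-NMP. No cluster of Epi-CE-T or Epi-CE had a median below that of any cluster of Epi-NMP or ES-NMP. In the smooth muscle-like cluster, named from Acta2, Tagln and Cnn1 and with at least 50 cells in 2 libraries, the median was 2.41% in 111 Epi-CE cells and 0.900% in 69 ES-NMP cells. Among all 7741 genes measured in these cells, 10.9% were at least 1.5-fold higher in Epi-CE and 18.5% lower. There 17 of 18 glycolytic genes were at least 1.5-fold higher in Epi-CE (median log2 ratio 1.53), as were 11 of the 14 hypoxia targets measured, with 1 lower (median 0.87). In an unnamed cluster led by Klhl6 and Pgam2, with T at 884 CPM in Epi-NMP and 878 in Epi-CE, the median was 1.10% in 183 Epi-NMP cells and 1.775% in 84 Epi-CE cells, and 12 of 17 glycolytic genes measured were at least 1.5-fold lower in Epi-NMP (median -0.66). Only 7 of the 15 hypoxia targets had enough UMIs there, and those 7 were lower (median -1.39). Of all 6841 genes measured in this cluster, 10.9% were lower and 10.9% higher. At Leiden resolution 0.5 neither cluster was kept: the one led by Acta2 had no name, with 10 Epi-CE and 64 ES-NMP cells, and Klhl6 led none.

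**Figure D4:**
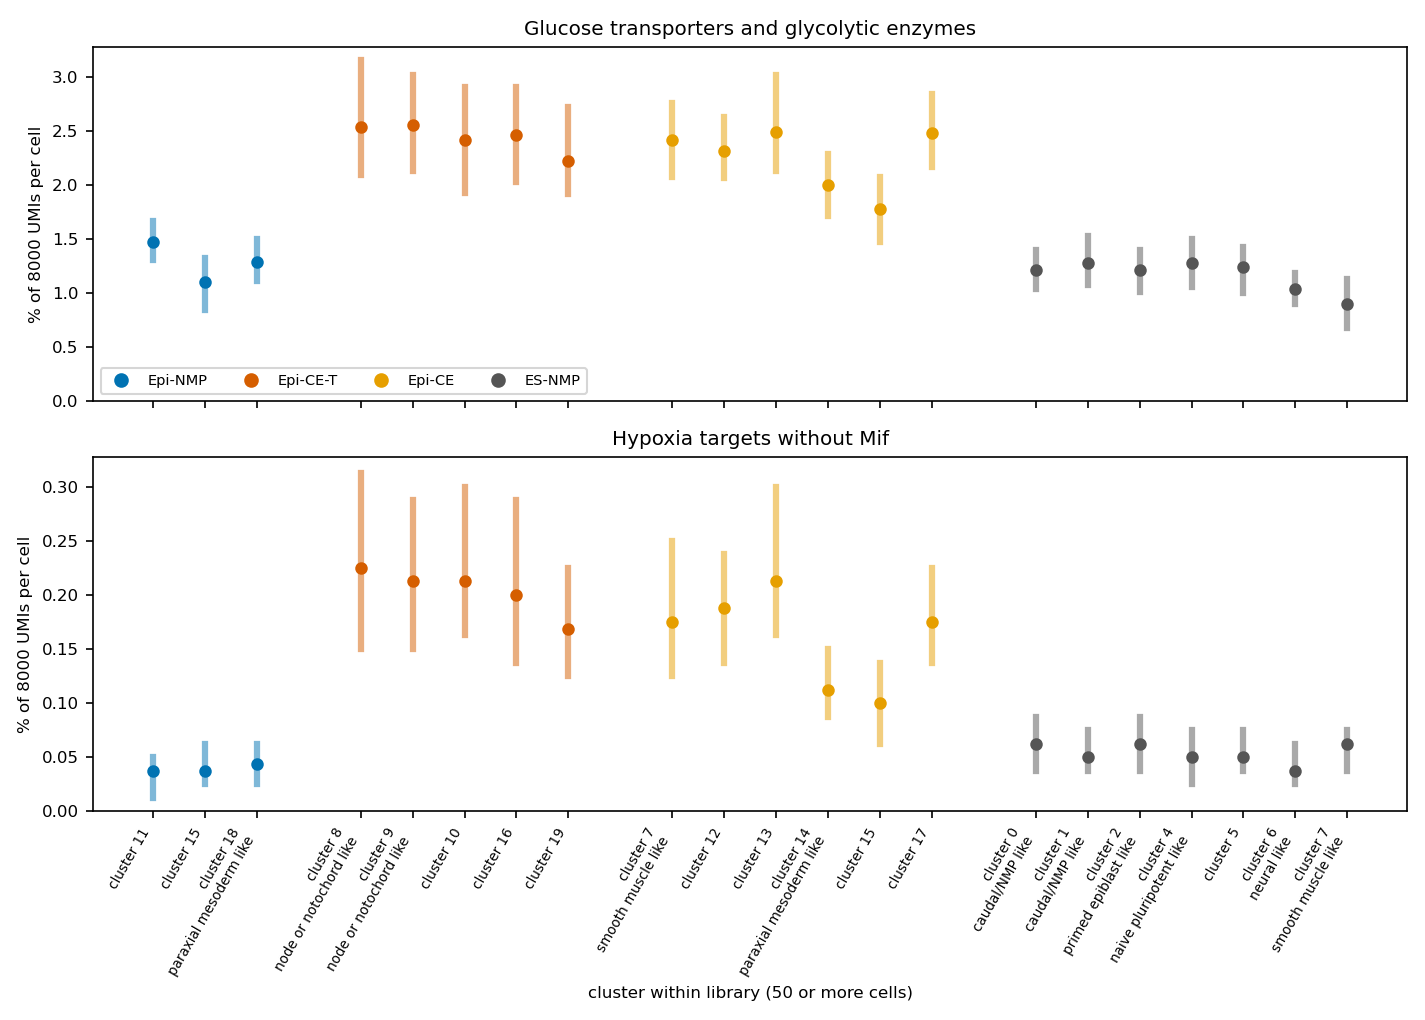
Share of 8000 UMIs per cell in the transporters and enzymes (top) and in the hypoxia targets without Mif (bottom), in percent, for every cluster with at least 50 cells in a library; points are medians over cells, bars the quartiles, and colours the libraries. Clusters of Epi-CE-T and Epi-CE lie above those of Epi-NMP and ES-NMP in both panels.

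Single genes could vary more. Between its clusters ES-NMP had a wider range than the libraries have between them in 6 of 18 glycolytic genes, both transporters, Hk1, Eno1, Ldha and Ldhb, and in 4 of the 12 hypoxia targets with a value, Pdk1, Egln3, Vegfa and Mif. Adm, Ppp1r3c and Ndrg1 had 0 UMIs in a cluster of ES-NMP, so their range has no finite value and was not counted. Ndrg1, for one, was at 20.9 CPM in the smooth muscle-like cluster and 0 in the neural-like cluster. In Epi-CE-T a wider range between clusters than between libraries held for 0 of 18 and 0 of 15. Such a range can grow with the number of groups, which was 7 clusters in ES-NMP and 5 in Epi-CE-T, against 4 libraries. Some ranges in ES-NMP also rest on few counts. The lowest cluster held 4 UMIs of Hk1 and 7 of Egln3, and Vegfa had 11 in both its highest and its lowest cluster. The transporters passed the range between libraries in 3 libraries, with 5.46-fold for Slc2a1 in ES-NMP against 2.60-fold between libraries. In Epi-NMP, Slc2a1 was at 596 CPM in the cluster led by Hox genes, where Sox2 was at 158, and at 218 in the paraxial mesoderm-like cluster, where Sox2 was at 28.9. Slc2a3 was at 246 and 35.1 CPM in the same clusters. In Epi-CE, the paraxial mesoderm-like cluster also had low levels, 239 CPM of Slc2a1 and 109 of Slc2a3, against library levels of 544 and 509.6. Over the clusters of a library, the highest level of Slc2a3 was 7.01 times the lowest in Epi-NMP, 2.98 times in Epi-CE-T and 8.14 times in Epi-CE, against 7.66 times in ES-NMP. For Gapdh the same figure was 1.22 in Epi-NMP, 1.21 in Epi-CE-T and 1.37 in Epi-CE, against 1.46 in ES-NMP.

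In ES-NMP, the naive pluripotent-like cluster of 683 cells, with Zfp42 and Dppa3, stood apart for a few genes. Ldhb was at 592 CPM there, and between 124 and 314 in the other clusters of ES-NMP. Pdk1 was at 115 CPM there, against 78.0 in the primed epiblast-like cluster and at most 29.7 in the others. Pfkp was at 41.7 and at most 13.7 elsewhere, while Slc2a1 was lowest there, at 66.7, and highest at 364 in a caudal epiblast or NMP-like cluster. Adm was at 30.0 CPM in the smooth muscle-like cluster of ES-NMP, from 59 of the library's 124 UMIs. Egln3 was highest, at 24.7 CPM, in a cluster led by Sox17 and Tbx6.

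**Figure D5:**
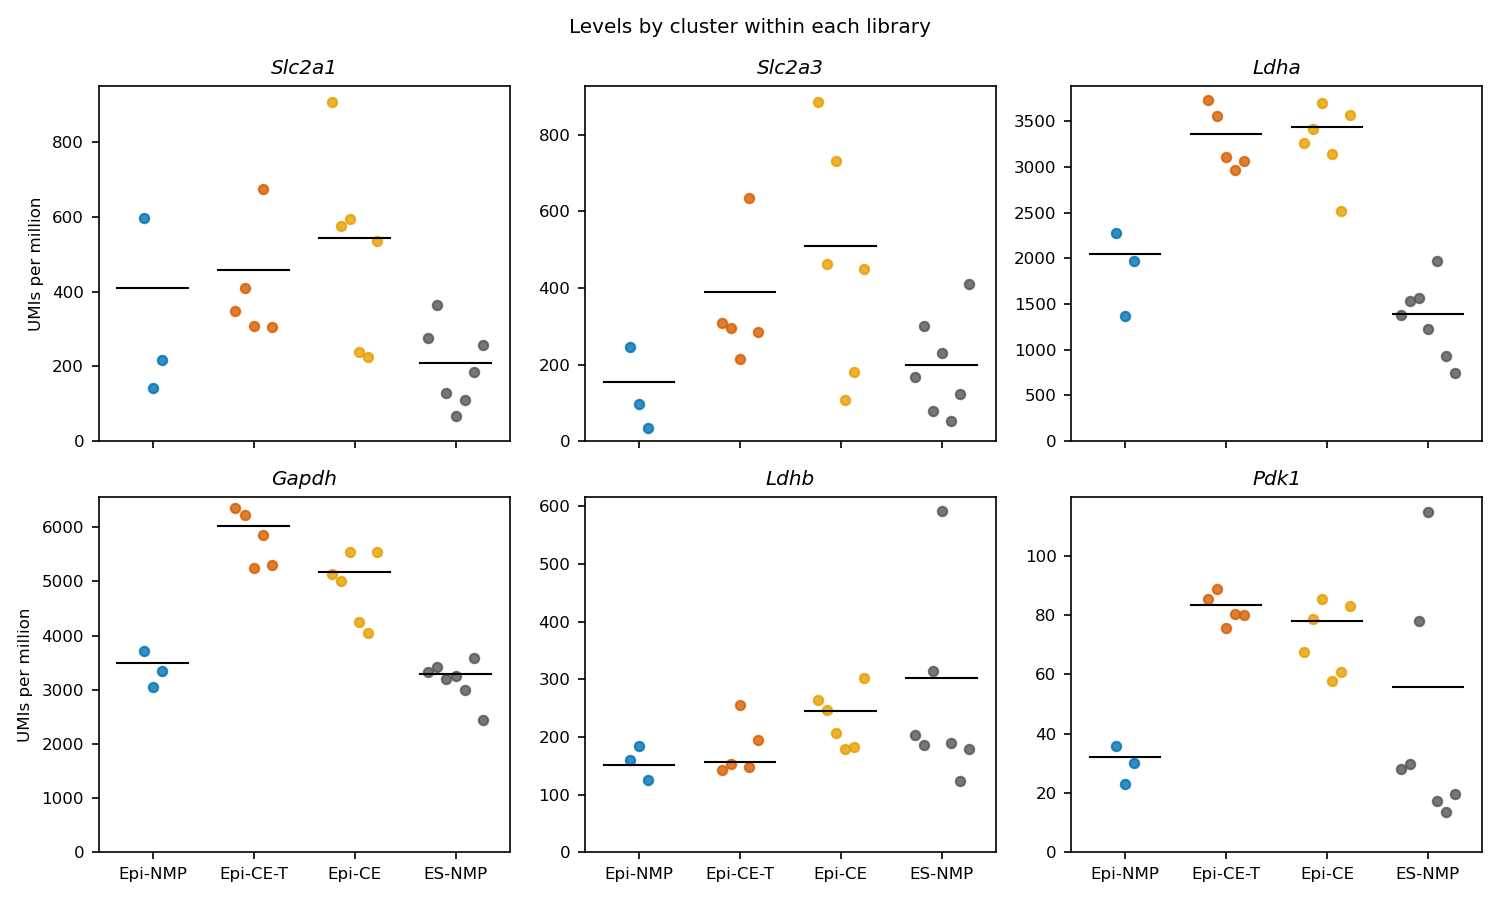
Levels of 6 genes in CPM by cluster (points, at least 50 cells each) within Epi-NMP, Epi-CE-T, Epi-CE and ES-NMP; black lines are the library's level. Slc2a1 and Slc2a3 spread widely inside each library, Gapdh and Ldha less, and Ldhb and Pdk1 have a high point in ES-NMP, the naive pluripotent-like cluster.

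In Epi-CE-T, Adm, Ppp1r3c, Egln3, Ankrd37 and Stc2 led an unnamed cluster of 407 cells when it was set against all other cells of the series. T was at 41.3 CPM in it and 509.9 in the other 1702 cells of this library, which was sorted on a T reporter. None of the 33 genes was used to form the clusters. Within Epi-CE-T, the members went both ways between the cluster and the other cells. Adm was at 34.9 CPM in the cluster and 23.5 in the other cells, and Slc2a3 at 636 and 296 (2.15-fold). In the same order, Pfkp was at 41.6 and 87.0, Hk1 at 17.4 and 29.3, P4ha1 at 118 and 200, and P4ha2 at 71.7 and 113. The highest Adm level among the clusters of Epi-CE-T was 44.4 CPM, in another unnamed cluster of 94 cells with T at 105. The other cells of Epi-CE-T alone had 21.5-fold (16.7 to 28.2) the Adm level of Epi-CE and 5.52-fold (4.72 to 6.48) its level of Ppp1r3c. Leaving the cluster out kept the median log2 ratio of the hypoxia set at 0.70 in Epi-CE-T over Epi-CE, with 8 of 15 called higher, but not the same 8: Egln3 (log2 ratio 0.38) was under 1.5-fold, and Bnip3 (1.63-fold) was past it. Calls of the glycolysis set changed too. Gpi1 (1.57-fold, 1.54 to 1.59) was then past 1.5-fold higher. Slc2a3, at 0.581 times (0.568 to 0.595) its level in Epi-CE, was past 1.5-fold lower.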

How the data were processed

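Counts of unique molecular identifiers (UMIs) per gene and cell were made by the authors with Cell Ranger 1.3.1 and mm10, and Seurat 2.0 is also named, per the submitters' processing notes. Alignment settings, annotation, the use of strand and the treatment of multi-mapping reads are not given in the sources used here, nor is the meaning of the TRUE and FALSE marks of the deposited cell table. Every TRUE cell had at least 8011 UMIs and 2501 genes. FALSE barcodes were mostly shallower, with a median of 4720 UMIs in Epi-NMP, 7543 in Epi-CE-T, 7806 in Epi-CE and 6982 in ES-NMP. Of the 1857 FALSE barcodes, 80 reached both minimums. The deposited counts are whole and not normalised. Of 10579 barcodes, 8722 are marked TRUE and 57 barcode sequences occur in more than 1 library. No doublet caller was run.

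Counts were summed over the TRUE cells of a library and divided by their total. A gene entered a comparison from 50 UMIs upwards, summed over its libraries, and 1.5-fold was called a difference. Levels have exact Poisson and ratios exact binomial 95% intervals. Scripts were tested on simulated data. The members and lists were chosen with earlier results of these data known. All members are named, and of each other list up to 4 genes with the largest ratio and at least 200 UMIs, 8 preset genes, and the 10 genes closest to the glycolysis share across cells.

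For clustering, 118 genes were left out (scanpy 1.11.5, 2000 variable genes, 30 components, 15 neighbours, Leiden resolution 1.0). Clusters were named from at least 3 markers, by a rule tightened after the clusters were seen. Alternatives were TMM factors (edgeR 4.0.16) and DESeq2 1.42.0 size factors in place of totals, totals without ribosomal and mitochondrial genes, all barcodes, per-cell means, cells thinned to 8000 UMIs, the 5% of cells with the most UMIs left out, no UMI minimum, 2-fold, an equal-weight score, Leiden resolution 0.5 and ES-NMP without naive-like cells. R 4.3.3, Python 3.11.15, numpy 2.4.6, scipy 1.17.1 and matplotlib 3.10.9 were used.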

Additional observations from a re-analysis of the deposited data

Results flagged for a closer look

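The barcodes marked FALSE in the deposited cell table were outside every comparison above, and both gene sets have counts in them above the limit that a count of 0 allows. The glycolysis set held 1.16431% of the UMIs of the 1513 FALSE barcodes of Epi-NMP, 2.60228% in the 92 of Epi-CE-T and 2.47095% in the 80 of Epi-CE, against 1.17413% in the 172 of ES-NMP. The hypoxia set held 0.251123% in Epi-NMP, 0.505844% in Epi-CE-T and 0.472793% in Epi-CE, against 0.249859% in ES-NMP. The order of the libraries is thus close to that of the TRUE cells, except that the FALSE barcodes of Epi-NMP and ES-NMP were level for both sets. In Epi-NMP the FALSE barcodes held less of the glycolysis set (1.16%) than the TRUE cells (1.38%), and more of the hypoxia set (0.251% and 0.222%). They were also shallower, with a median of 4720 UMIs against 19252 in the TRUE cells, and the part of depth in these shares was not tested.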

How the results depend on the processing

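No paired analysis was possible because each group is 1 library, and for the same reason no replicate could be left out. The median log2 ratios of both sets kept their sign in all 4 planned comparisons and under every setting run. In Epi-CE-T over Epi-CE the median log2 ratio of the glycolysis set, 0.12 as reported, was 0.0539 with TMM factors, 0.0671 with DESeq2 size factors, 0.151 as a mean of per-cell CPM, 0.149 in cells thinned to 8000 UMIs, 0.143 without the 5% of cells with the most UMIs and, chosen after seeing the data, 0.182 without the T-low cluster of Epi-CE-T that Adm leads. In Epi-NMP over ES-NMP that of the glycolysis set, 0.0716 as reported, was 0.0308 with TMM factors, 0.0301 with DESeq2 size factors and 0.0156 with all deposited barcodes. With all barcodes, Epi-NMP over Epi-CE gave -1.11 for the glycolysis set (-1.01 as reported) and -1.39 for the hypoxia set (-1.45). In Epi-CE over ES-NMP the hypoxia set, 1.39 as reported, was at 1.51 in thinned cells, 1.16 with the naive-like cells left out of ES-NMP and 2.64 with Epi-CE-T in place of Epi-CE, an alternative chosen after seeing the data, under which the log2 ratio of Adm was 3.94 in place of -0.67. At 2-fold in place of 1.5-fold, 0 members were lower in Epi-CE over ES-NMP (1 at 1.5-fold), 2 were higher in Epi-NMP over ES-NMP (4), and 0 were lower in Epi-CE-T over Epi-CE (2). The difference of the median hypoxia share between Epi-CE and ES-NMP cells was 2.10 SDs of ES-NMP cells, and 3.32 SDs without Mif, also chosen after seeing the data. Of 1184 alternative values of single members, 14 moved by over 1.5 times, 10 lost their call and 1, Adm as above, changed its direction. Calls gained were not counted, such as those of Bnip3, Gpi1 and Slc2a3 in Epi-CE-T over Epi-CE without the T-low cluster. The calls lost were 5 of Stc2 in Epi-CE over ES-NMP, Ldhb and Pdk1 in Epi-NMP over ES-NMP without naive-like cells, 2 of Ddit4 in Epi-CE-T over Epi-CE, and Egln3 there without the T-low cluster. Where cells or libraries were left out or exchanged, the setting's own construction changed the cells; for the other shifts the cause was not tested. Depth limits Adm in Epi-NMP, which rests on 1 UMI, and Ppp1r3c and Vegfa most.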
